A study of Mus musculus with 8 samples.

Results

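The Eph receptors are described here in RNA-seq counts of 8 subcutaneous tumors grown from MC38-OVA. MC38 is a colon cancer line of the mouse, and this derivative makes ovalbumin, a model antigen. The genes are 10 of the 25766 entries of the deposited table, matched by symbol: Epha1, Epha2, Epha3, Epha4, Epha7, Epha8, Ephb2, Ephb3, Ephb4 and Ephb6. The set was chosen by the lower count of Epha8 in shXBP1 tumors, so the difference in Epha8 is given as a description with no test. The other 9 entered as members of the same family. Of the 10, 8 had enough counts to be tested, and Epha4 and Epha7 did not.

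Cells carrying either hairpin had been injected under the skin of female C57BL/6J mice. Tumors labelled shNT (n = 4) and tumors labelled shXBP1 (n = 4), whose hairpin is directed against Xbp1, were compared. All 8 come from the ovalbumin line. How many hairpins were used per target, whether cells were clones or pools, and the age of the mice were not given in the sources used here. It is also not stated that the 4 numbered tumors of a group grew in separate mice. The p-values therefore measure the spread between these samples, which may be technical. Xbp1 was 1.43-fold lower in shXBP1 tumors (from 101 ± 5.96 CPM to 70.9 ± 9.61 CPM, SD, n = 4 each, CPM being counts scaled to the size of each library; adjusted p = 0.00255, edgeR).

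Eph receptors form the largest family of receptor tyrosine kinases. Their ligands, the ephrins, are themselves held at the cell surface, so signalling needs contact between cells. It runs forward into the cell with the receptor and in reverse into the cell with the ephrin. A-class receptors mostly bind ephrin-A, which is anchored by a lipid, and B-class receptors mostly bind ephrin-B, which spans the membrane. The family is known for guiding axons, for sorting cells at tissue boundaries such as those of the intestinal crypt, and for the separation of arteries from veins.

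Epha8, best known from the developing midbrain, stands on GRCm38 chromosome 4 (136929419 to 136956816, minus strand), and Efna4, the one ephrin called as different below, on chromosome 3 (89333390 to 89338028, minus strand). The 250 bases before their start sites, from RefSeq (GRCm38.p6), are printed because these were the receptor that chose the set and the ligand that passed the test. Capitals mark CACGTG, the E-box bound by basic helix-loop-helix factors, and CCAAT, read on either strand (ATTGG on the other).
Epha8 chr4:136956817-136957066, minus strand: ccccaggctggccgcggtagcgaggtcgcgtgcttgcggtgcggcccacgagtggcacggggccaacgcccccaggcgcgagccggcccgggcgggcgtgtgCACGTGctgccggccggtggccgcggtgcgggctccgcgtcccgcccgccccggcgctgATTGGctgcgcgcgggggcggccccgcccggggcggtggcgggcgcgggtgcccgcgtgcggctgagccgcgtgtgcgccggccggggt
Efna4 chr3:89338029-89338278, minus strand: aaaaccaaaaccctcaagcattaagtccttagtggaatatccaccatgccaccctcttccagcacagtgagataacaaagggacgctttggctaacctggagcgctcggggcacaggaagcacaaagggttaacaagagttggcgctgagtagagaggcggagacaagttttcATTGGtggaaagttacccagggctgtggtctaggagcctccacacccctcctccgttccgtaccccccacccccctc

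The Epha8 window was 84.0% G and C, against a median of 52.4% and a 95th percentile of 73.6% over 32817 RefSeq promoters, and the Efna4 window was 54.4%. The E-box of Epha8 began 148 bases before the start site and its CCAAT began 89 bases before it. An E-box was found in 6.02% of all promoters and CCAAT in 33.8%. Of the 18 receptors and ephrins looked up, 17 were in the table, with 20 promoters, and the E-box was found in the promoter of Epha8 and in none of the other 19. Further motifs were searched on both strands. CCACG, part of the ER stress response element and able to overlap an E-box, was in the Epha8 window and in 28.3% of promoters. It was also in promoters of Epha2, Epha3, Epha4, Epha7, Ephb2, Ephb3, Ephb6, Efna3 and Efnb1, and in 1 of Efna1. Those of Epha1, Ephb4, Efna2, Efna4, Efna5 and Efnb2 lacked it. In the Epha8 window CCACG began 205 bases before the start site, and CCAAT 89 bases before it on the other strand. These matches lie apart and on opposite strands, and no ER stress response element was read from them. TGACGTGG, an unfolded protein response element, was in 0.564% of promoters and in neither window. TCACCCCAC, part of the sterol regulatory element of the LDL receptor gene, was in 0.497% and in neither window. A match is a description of these letters and not a bound site.

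Total counts were between 29070605 and 36012997 per tumor. Over all 14907 genes tested with edgeR at an adjusted p of 0.05, 30.0% were called, 16.9% as higher and 13.1% as lower in shXBP1 tumors, and counts of called genes are to be read against these shares. Leukocyte markers were higher for 8 of 8 genes, with a summed level of 1471 to 2031 CPM in shNT and 2380 to 4674 CPM in shXBP1. The leukocyte sum is mostly Lyz2, with group means of 1480 CPM (shNT) and 3062 CPM (shXBP1). Endothelial markers were higher for 4 of 8 (50.2 to 58.5 and 99.3 to 109.3 CPM) and fibroblast markers for 6 of 8 (1880.3 to 3172 and 6129 to 8283 CPM). The fibroblast sum is mostly Col3a1, with group means of 1580 CPM (shNT) and 5165 CPM (shXBP1). The 2 collagen I genes of that list were not called. Col1a2 had a log2 fold change of -0.26 (unadjusted p = 0.0195, adjusted p = 0.0606, edgeR) and Col1a1 of 0.05. Of the epithelial markers 0 of 3 tested were called (at an unadjusted p under 0.05, 1 lower and 1 higher, edgeR), and Krt8, Krt18, Epcam and Cldn4, which define colon epithelium, had 30, 4, 81 and 10 counts in all 8 tumors. Cdh1 on the same list was detected, with 5.93 ± 1.02 CPM in the shNT group and 8.31 ± 1.497 CPM in the shXBP1 group (SD, n = 4 each, adjusted p = 0.0597, edgeR). Of 2 keratinocyte markers tested, Krt14 fell, from 175 ± 26.7 CPM to 49.4 ± 2.33 CPM (SD, n = 4 each), and Krt10 had a log2 fold change of 0.09 (adjusted p = 0.835, edgeR). The other 3 were too low to test and had more counts in shXBP1 than in shNT tumors, Krt5 141 against 3, Krt15 219 against 0 and Trp63 74 against 16. Skeletal muscle markers were called for 0 of 5 (0 at an unadjusted p under 0.05, edgeR), with sums of 9.05 to 31.9 and 13.1 to 53.4 CPM, the highest in shXBP1 tumor 4. Nerve and Schwann cell markers were called for 0 of 2 tested genes (1 lower at an unadjusted p under 0.05, edgeR), and Sox10 and Snap25 were at or near 0. Tumor 4 of the shXBP1 group had the fewest leukocyte transcripts of its group, with Ptprc, the CD45 gene, at 94.8 CPM against 156 to 193 CPM in the other 3. In these bulk libraries fewer cells of a type and less RNA per cell cannot be told apart, and the part these markers have in the results below was not tested.

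Epha8 was expressed in shNT tumors at 13.5, 15.55, 11.6 and 12.35 CPM in tumors 1 to 4. In shXBP1 tumors 1 to 4 it stood at 2.61, 1.54, 2.77 and 3.83 CPM. The groups did not overlap, and the highest shXBP1 tumor was 4. These levels rest on 427, 493, 334 and 396 counts in shNT tumors and on 82, 48, 96 and 143 counts in shXBP1 tumors. The log2 fold change, shXBP1 minus shNT, was -2.29 (SE 0.23), or 4.90-fold lower, and the authors' deposited table gives -2.09. It lay between -2.51 and -2.10 when any 1 tumor was left out. No annotated gene overlaps Epha8 on either strand.

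**Figure D1:**
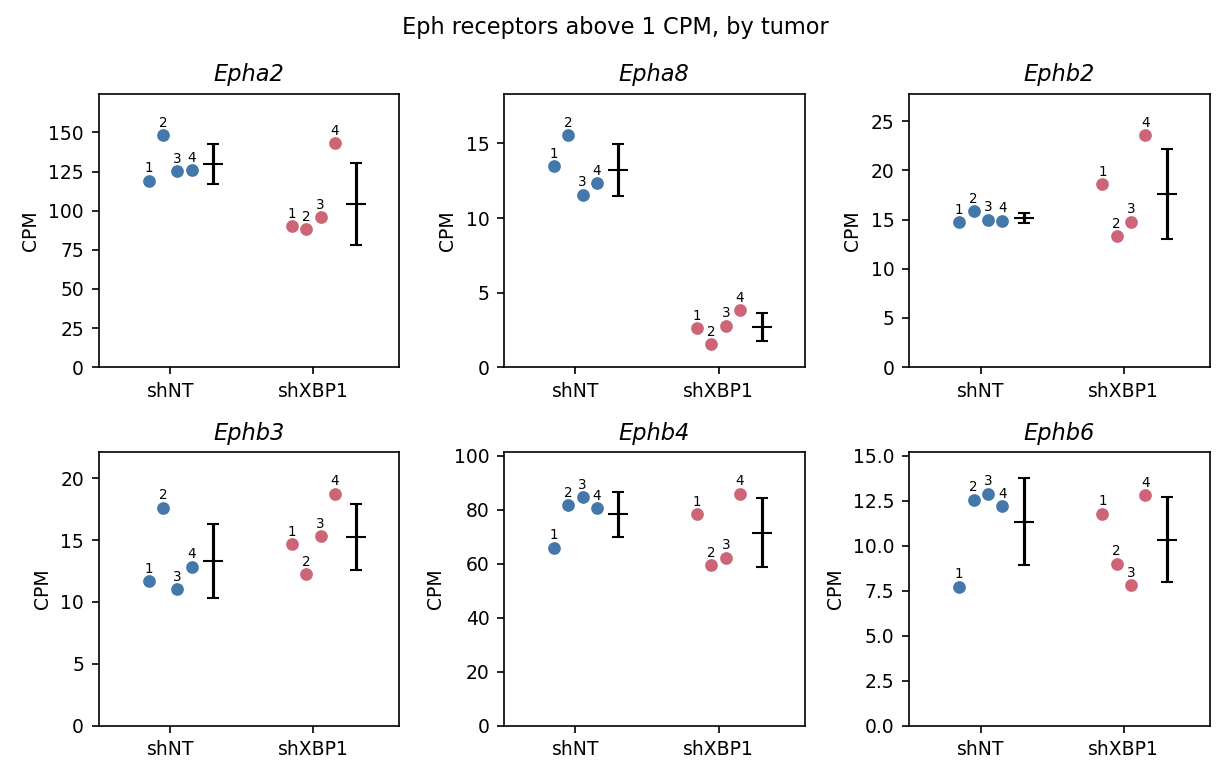
CPM of the 6 Eph receptors above 1 CPM in each tumor, numbered 1 to 4, with the mean and SD of each group beside the points (n = 4). The groups of Epha8, which was chosen for its fall in this contrast, do not overlap, so nothing is read from that. Tumor 4 is the highest point of the shXBP1 group in all 6 panels. Some genes outside the family were also highest in that tumor.

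Of the other A-class receptors Epha2 was the most abundant. Epha2, a receptor often abundant in carcinoma cells, stood at 119.2, 148.2, 125.04 and 126 CPM in shNT tumors 1 to 4. In shXBP1 tumors 1 to 4 it stood at 89.9, 88.1, 95.7 and 143 CPM. Tumors 1 to 3 of the shXBP1 group lay below every shNT tumor, and tumor 4 lay within the shNT range. Over all 8 tumors the log2 fold change was -0.31 (95% interval -0.64 to 0.01, adjusted p = 0.134, edgeR). Without shXBP1 tumor 4 it was -0.50 and passed the threshold (adjusted p = 0.000622), so this tumor decides the call. Over all genes the number called lower also rose without it, from 1958 to 2401.

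The B-class receptors were called for none of 4. Ephb4, which marks venous endothelium and binds ephrin-B2, stood at 65.9, 81.8, 84.7 and 80.5 CPM in shNT tumors and at 78.2, 59.4, 62.25 and 85.9 CPM in shXBP1 tumors, with groups that overlap (log2 fold change -0.13, 95% interval -0.40 to 0.14). Ephb2, which helps to position cells along the intestinal crypt, stood at 14.75, 15.9, 15.01 and 14.9 CPM in shNT tumors. It stood at 18.6, 13.3, 14.8 and 23.6 CPM in shXBP1 tumors, a wider spread around the shNT range (log2 fold change 0.22, 95% interval -0.13 to 0.56). Ephb3, a close relative of Ephb2 with a similar role in the crypt, ranged from 11.0 to 17.6 CPM in shNT and from 12.25 to 18.75 CPM in shXBP1 tumors (0.20, 95% interval -0.17 to 0.56). Ephb6, a receptor without kinase activity, ranged from 7.72 to 12.9 and from 7.80 to 12.8 CPM (-0.13, 95% interval -0.56 to 0.29).

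Among the 7 tested receptors other than Epha8, edgeR's quasi-likelihood test called 0 at an adjusted p of 0.05, and 0 were below an unadjusted p of 0.05. DESeq2 and limma voom also called 0 at the adjusted threshold. Over all genes tested 30.0% were called, 16.9% as higher and 13.1% as lower. The contrast chose the set, so nothing is read from that difference. The median log2 fold change of the 7 was -0.03, against -0.01 over all genes tested. Each of the 7 intervals includes 0, and they do not show that the levels are alike. The interval of Epha3 spans -1.61 to 1.56, and that of Epha1 spans -0.58 to 1.22.

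The other receptors of the set were scarcely detected. Epha1, a receptor of epidermal cells, had 132 counts in all 8 tumors and stood at 0.221 to 0.662 CPM in shNT and 0.491 to 0.643 CPM in shXBP1 tumors. It overlaps Zyx on the opposite strand by 1727 bases, and the mean level of Zyx was 153 CPM in the shNT group and 183 CPM in the shXBP1 group. The labels do not say whether the counting used strand, so reads of the pair may not be told apart. Epha3, a receptor of mesenchymal cells, had 77 counts and stood at 0 to 0.505 and 0.127 to 0.509 CPM. Epha4, known for axon guidance, had 36 counts and Epha7 had 10 counts in all 8 tumors. Of the 4 Eph receptors outside the set, Ephb1 had 68 counts, Epha10 had 11, and Epha5 and Epha6 had 0 of 258767551 counts, which allows up to 0.0116 CPM for each (3 counts, counting error only).

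Levels can be ordered between receptors only per length, for which the deposited FPKM (fragments scaled to length and depth) was used. In shNT tumors Epha2 was highest (29.3 ± 3.84 FPKM, SD, n = 4), followed by Ephb4 (16.0 ± 1.98 FPKM), and their ranges did not overlap. Ephb3 (2.98 ± 0.796 FPKM), Ephb6 (mean 2.66 FPKM, range 1.78 to 3.08) and Epha8 (2.48 ± 0.400 FPKM) followed with ranges that overlap, and Ephb2 was below these 3 on average (1.31 ± 0.153 FPKM). In shXBP1 tumors the order of the first 4 by mean was the same, with Epha2 at 23.8 ± 7.25, Ephb4 at 14.7 ± 3.18, Ephb3 at 3.36 ± 0.708 and Ephb6 at 2.44 ± 0.637 FPKM. Ephb2 (1.74 ± 0.882 FPKM) came next and Epha8 (0.508 ± 0.201 FPKM) was last of the 6, with no overlap between them. Of the summed FPKM of all 14 Eph receptors, Epha8 made up 3.95% to 5.196% in shNT tumors and 0.739% to 1.25% in shXBP1 tumors. Epha2 made up 51.4% to 55.5% and 45.5% to 53.2%.

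**Figure D2:**
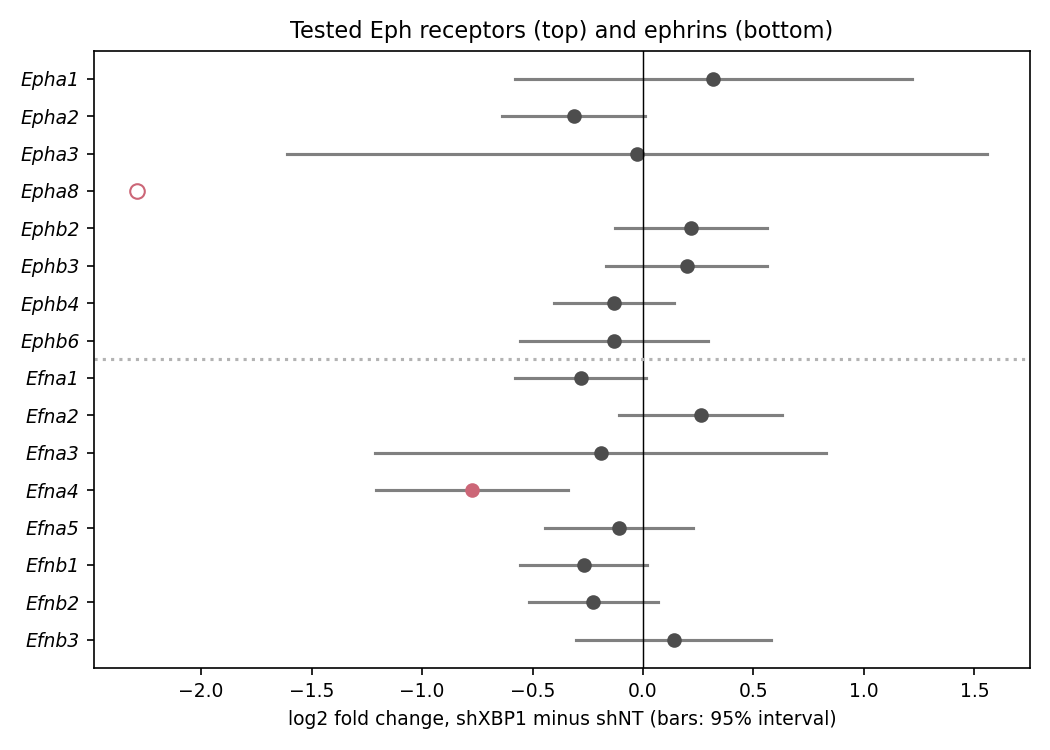
Log2 fold change, shXBP1 minus shNT, of the tested Eph receptors and ephrins, with the 95% interval. The open point is Epha8 at -2.29, which chose the set and has no test, and the red point is Efna4 at -0.77.

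Among the ligands Efna4 was lower. Efna4 encodes ephrin-A4, one of the lipid-anchored ephrins, and stood at 5.89, 4.32, 5.37 and 6.61 CPM in shNT tumors 1 to 4. In shXBP1 tumors 1 to 4 it stood at 3.57, 2.48, 3.18 and 3.75 CPM, so that the groups did not overlap. It fell by 0.77 on the log2 scale (SE 0.20, 95% interval -1.21 to -0.34, adjusted p = 0.0118, edgeR), and the authors' deposited table gives -0.71. Its adjusted p lay between 0.00155 and 0.0383 over all alternatives. Efna4 overlaps 4731419I09Rik on the opposite strand, and with the strand option unknown reads of the pair may not be told apart.

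Of the 8 ephrins tested, 1 fell, 0 rose (0 higher at an unadjusted p under 0.05, edgeR) and 7 did not pass, with a median of -0.21. The share that fell is near the 13.1% of all genes called lower. Efna1, the ephrin-A that binds Epha2 strongly, stood at 18.1 to 23.9 CPM in shNT and 14.3 to 21.5 CPM in shXBP1 tumors (log2 fold change -0.28, adjusted p = 0.142, edgeR). Efnb1, an ephrin-B encoded on the X chromosome, stood at 13.7 to 15.03 and 9.88 to 14.8 CPM (-0.27, adjusted p = 0.147, edgeR). Without shXBP1 tumor 4 both passed the threshold, Efna1 at -0.38 (adjusted p = 0.0385) and Efnb1 at -0.39 (adjusted p = 0.0234), so that 3 ephrins fell. Over all genes the number called lower also rose without that tumor, from 1958 to 2401, and the gain is to be read against this. Efnb2, the arterial partner of Ephb4, stood at 22.2 to 36.7 and 23.3 to 27.0 CPM (-0.22, adjusted p = 0.233, edgeR).

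Efna2 averaged 7.03 CPM in the shNT group and 8.42 CPM in the shXBP1 group, Efna5 7.75 and 7.19 CPM, Efnb3 4.197 and 4.62 CPM and Efna3 0.728 and 0.637 CPM. Their log2 fold changes were 0.26, -0.11, 0.14 and -0.19, and none was called. Efna1, Efna3 and Efna4 lie next to one another on chromosome 3, at 89271733 to 89281142, 89313899 to 89322965 and 89333390 to 89338028, all on the minus strand. Of these neighbours Efna4 was the one called over all 8 tumors. Differences between the neighbours were not tested.

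All 6 receptors above 1 CPM had their highest value of the shXBP1 group in tumor 4. Tubb3 and Pdgfra of the marker lists and Zbtb40, all outside the family, were also highest there, and Ptprc was lowest. The share of all genes that were highest in this tumor is not given here, so nothing is read from the 6. Tumor 4 had the lowest leukocyte and the highest muscle markers of that group, and their part in these values was not tested.

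Of the genes around Epha8, the C1q genes rose. Within 150 kb of Epha8, a window chosen by position after its values were seen, 5 other genes were tested. C1qa, C1qb and C1qc, which encode the chains of the complement component C1q made mainly by macrophages, lie between Epha8 and Ephb2. Their levels were 232 ± 39.5, 239 ± 39.8 and 185 ± 33.5 CPM in shNT and 486.5 ± 153, 472 ± 128 and 403.5 ± 129 CPM in shXBP1 tumors (SD, n = 4 each). They rose by 1.07, 0.98 and 1.13 on the log2 scale (adjusted p = 0.0129, 0.00752 and 0.0129, edgeR). In shXBP1 tumor 4 they stood at 263, 282 and 213 CPM, against 258, 272 and 213 CPM in the highest shNT tumor. Zbtb40, a zinc finger gene whose nearest end is 22.9 kb from Epha8, was at 31.5 ± 2.61 and 32.5 ± 2.79 CPM (log2 fold change 0.04, adjusted p = 0.761, edgeR), and Ephb2 is given above.

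**Figure D3:**
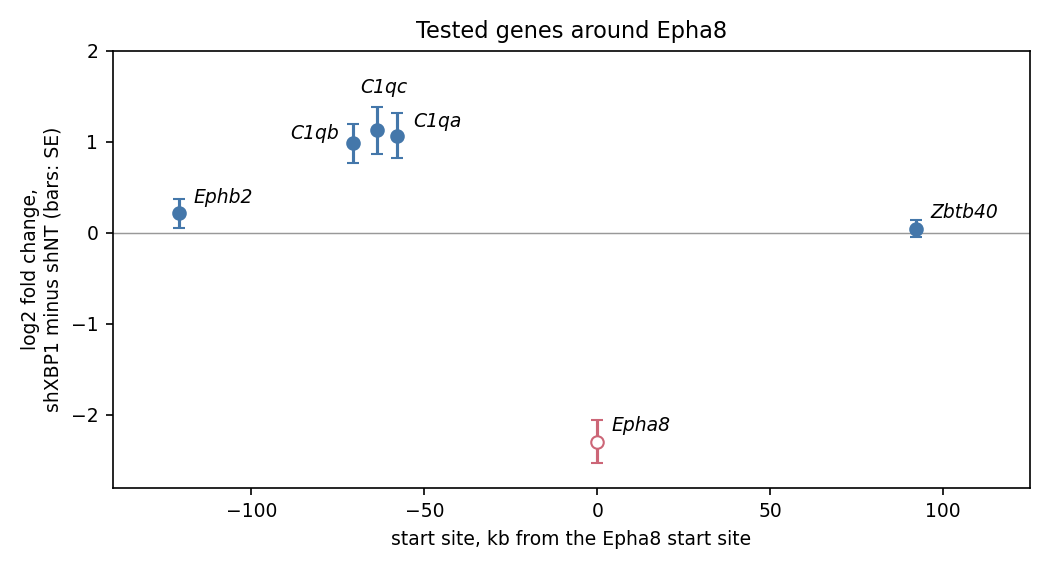
Log2 fold change with its SE of each tested gene within 150 kb of Epha8, against the distance of its start site from that of Epha8 in kb. The 3 C1q genes lie at 0.98 to 1.13, Ephb2 and Zbtb40 at 0.22 and 0.04, and Epha8 (open point, no test) at -2.29.

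The genes whose level followed Epha8 most closely were sought among 13310 tested genes with a mean of at least 1 CPM, by Pearson's r of log2 CPM over the 8 tumors. Among the first 5 were Acat2 (r = 0.998), Hmgcs1 (0.996), Fdps (0.995) and Cdk13 (0.995). Acat2 encodes an acetoacetyl-CoA thiolase, Hmgcs1 the HMG-CoA synthase of the cytosol, Fdps farnesyl diphosphate synthase and Cdk13 a kinase of transcription. The tumors form separate groups, so r was also taken on the deviations of each tumor from its group mean, and was then 0.974, 0.949, 0.934 and 0.983 for these 4 genes. These are descriptions over 8 tumors, picked as the highest of many, and carry no test. The genes compared within a tumor share its library and depth.

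Acat2 stood at 163, 169.9, 146 and 134 CPM in shNT tumors 1 to 4 and at 43.2, 29.8, 44.3 and 55.6 CPM in shXBP1 tumors 1 to 4. As with Epha8, shNT tumor 2 was the highest shNT tumor, shXBP1 tumor 2 the lowest and tumor 4 the highest of the shXBP1 group. Hmgcs1 and Fdps shared this order of the shXBP1 extremes, at 80.8 and 52.5 CPM in tumor 2 and 147 and 105 CPM in tumor 4. The log2 fold changes of Acat2, Hmgcs1 and Fdps lay between -1.90 and -1.83, and that of Cdk13 was -0.29. Ptprc ran the other way, with r of -0.97 over the 8 tumors and -0.85 on the deviations. On the same deviations the receptors Epha2, Ephb2 and Ephb3 had r of 0.782, 0.836 and 0.816 with Epha8, and Ephb4 and Ephb6 had 0.596 and 0.309. Over the 8 tumors their r was 0.763, -0.137, -0.165, 0.498 and 0.292 in the same order. The spread of r on the deviations over all genes is not given here, so nothing is read from these values. Xbp1 had r of 0.751 over the 8 tumors and -0.732 on the deviations, so that within groups it ran against Epha8. It stood at 97.3, 96.0, 102.5 and 109.2 CPM in shNT tumors 1 to 4. In shXBP1 tumors 1 to 4 it stood at 77.2, 76.0, 73.7 and 56.6 CPM, lowest in tumor 4, where Epha8 was highest.

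**Figure D4:**
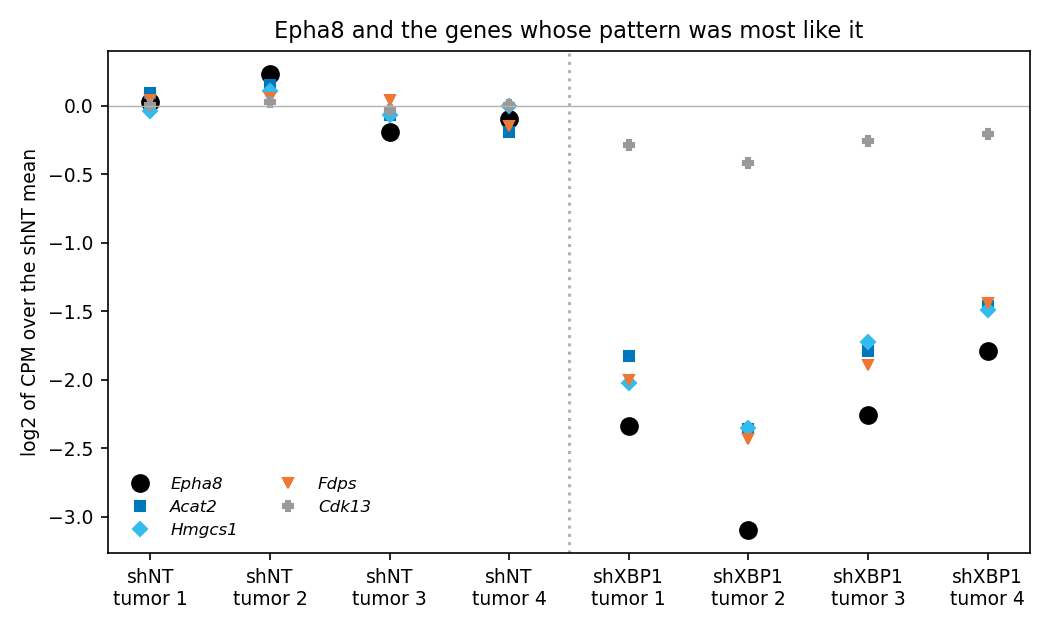
Log2 of the CPM over the shNT mean of Epha8 and of 4 of the 5 genes with the highest correlation to it (Acat2, Hmgcs1, Fdps and Cdk13), in each of the 8 tumors. In shXBP1 tumors Epha8 lies between -3.10 and -1.79, and Acat2 between -2.36 and -1.46, each lowest in tumor 2 and highest in tumor 4.

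Of 39 listed genes for partners that carry Eph and ephrin signals or cut these proteins, 38 were tested, 9 rose, 4 fell and 25 did not pass, with a median log2 fold change of 0.01. The shares are to be read against the 16.9% and 13.1% of all genes given above. With an adjusted p of 0.01 as the threshold 5 rose and 1 fell. Without shNT tumor 1, 2 fell.

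The partners of the ephrins, which act in reverse signalling or cut the ligand and receptor, were 8 tested genes with a median of 0.40. Of these 5 rose, 0 fell (0 lower at an unadjusted p under 0.05, edgeR) and 3 did not pass. Rgs3, a regulator of G protein signalling that binds ephrin-B, stood at 19.85, 19.3, 19.2 and 20.55 CPM in shNT tumors and at 33.01, 34.8, 30.5 and 35.7 CPM in shXBP1 tumors, without overlap (1.70-fold higher, adjusted p = 8.11e-05, edgeR). Mmp14, a membrane-bound metalloprotease that cleaves Epha2, was 1.43-fold higher (196 ± 16.9 and 279.9 ± 31.0 CPM, adjusted p = 0.00191, edgeR). Sdcbp, the scaffold syntenin that binds the tail of ephrin-B, was 1.48-fold higher (252 ± 24.3 and 372 ± 68.6 CPM, adjusted p = 0.00509, edgeR). Adam10, a protease that sheds ephrins, had a log2 fold change of 0.02 (adjusted p = 0.860, edgeR).

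The partners of the receptors were 30 tested genes with a median of -0.05, of which 4 rose, 4 fell and 22 did not pass. Vav3, an exchange factor recruited by active Eph receptors and known from lymphocytes, was 1.97-fold higher (4.52 ± 0.557 and 8.90 ± 1.02 CPM, adjusted p = 0.000751, edgeR). Chn1, the Rac GTPase-activating protein alpha-chimaerin that acts below Epha4, stood at 6.96, 9.62, 8.91 and 5.92 CPM in shNT tumors. In shXBP1 tumors it stood at 3.86, 3.44, 3.98 and 4.47 CPM, below every shNT tumor (1.99-fold lower, adjusted p = 0.00194, edgeR).

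Ngef, the exchange factor ephexin 1 that binds Epha4, was 1.29-fold lower (100.8 ± 6.04 and 78.1 ± 10.2 CPM, adjusted p = 0.0132, edgeR). Yes1, a Src family kinase, was 1.30-fold lower (adjusted p = 0.0151, edgeR), and this call was lost without shNT tumor 1 (adjusted p = 0.0527) or shXBP1 tumor 3 (0.0523). Crk, an adaptor, was 1.22-fold lower (adjusted p = 0.0166, edgeR), and this call was lost without shNT tumor 1 (adjusted p = 0.0514) or shNT tumor 3 (0.0612). Leukocyte markers rose in the same tumors, and their part in the level of these partners was not tested.

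**Figure D5:**
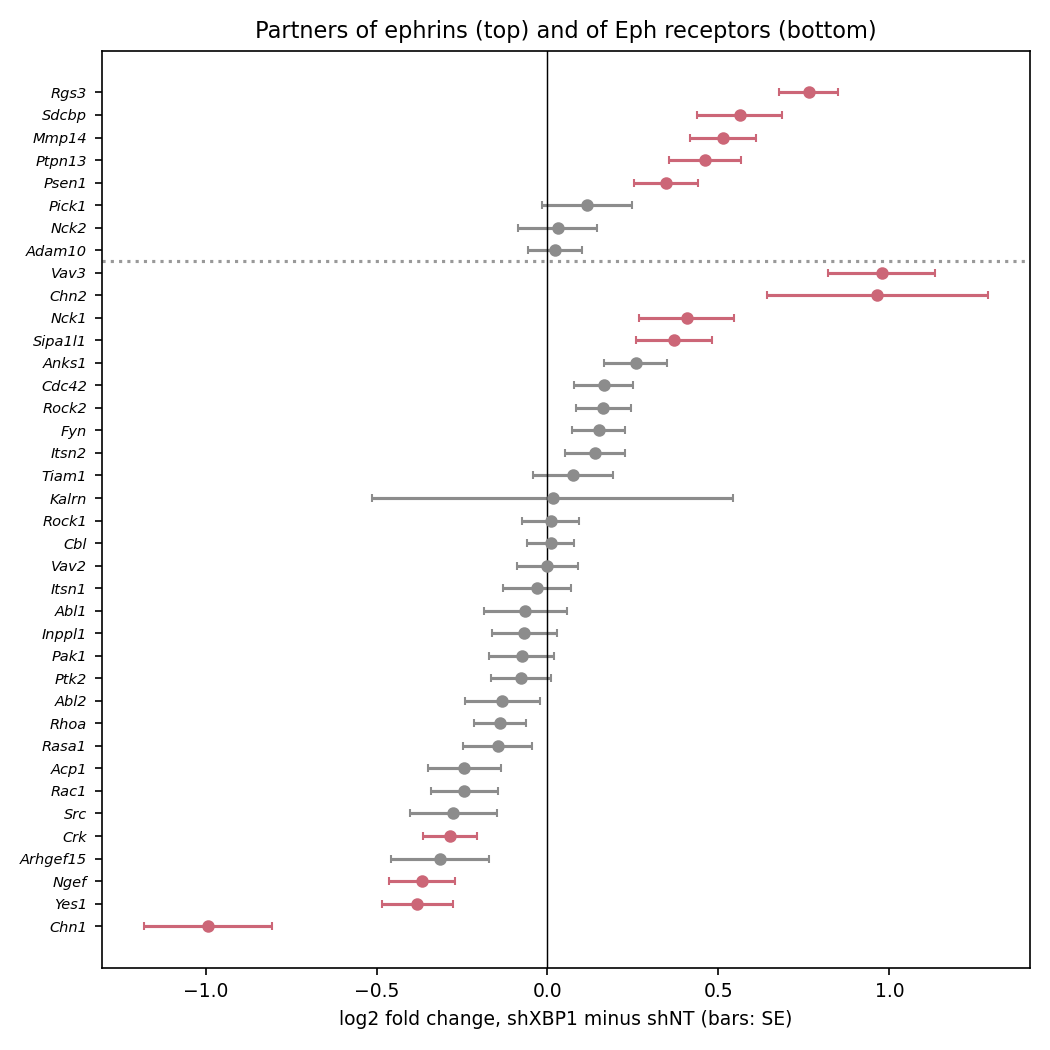
Log2 fold change with its SE of the 38 tested signalling partners, those of ephrins above the dotted line and those of Eph receptors below it. Red points passed the threshold of 0.05 on the adjusted p, 5 of 8 above the line (all higher) and 8 of 30 below it (4 higher and 4 lower).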

How the data were processed

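RNA-seq of total RNA from 8 whole tumors was used, grouped by the genotype in the titles. For each tumor the authors deposited a raw count and an FPKM (scaled to length and depth) per gene, per the file headers, and the same table has log2 fold changes and adjusted p-values of the authors' DESeq2 comparison. The submitters' processing notes name GRCm38. Which aligner, counter, strand option and annotation they used was not given in the sources used here. Coordinates are from GENCODE M21 of GRCm38.

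Total counts were 29070605 to 36012997 per tumor. Genes passing filterByExpr (14907) were scaled by TMM (factors 0.980 to 1.04) and tested with the quasi-likelihood test of edgeR 4.0.16 in R 4.3.3 (robust, no covariate, two-sided, Benjamini-Hochberg over all genes tested, threshold 0.05). CPM uses these library sizes, and log2 CPM for correlations a prior count of 2. Intervals are 95% intervals of the log2 fold change. Alternatives were DESeq2 1.42.0, limma voom 3.58.1, DESeq2 size factors, no filter or 1 CPM in 4 libraries, the tumor number as a block, a threshold of 0.01, deposited FPKM for Epha8, and leaving out each tumor. Named genes were the receptors, the ephrins, up to 4 called partners per direction with the smallest p, the 5 genes most correlated with Epha8 (1 of them is not reported here), Xbp1, Ptprc and genes with a single tumor distant from the rest. Adam10 and the genes near Epha8 were named outside this rule, after their values were seen. The receptors, lists and tests were chosen with earlier results of these data known. The fit was tested on simulated data. Tumors of a group differed far beyond counting noise (lowest chi-square per degree of freedom 15.5).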

Additional observations from a re-analysis of the deposited data

Results flagged for a closer look

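A value was singled out where 1 tumor of 4 lay farther from the nearest of the others than 0.829 of the range of its group (Dixon's test). Chance alone gives about 1 in 20 such groups, and 6 of 70 groups of 4 tumors were marked. Epha2 in shXBP1 tumor 4 was at 143 CPM, with the other 3 at 88.1 to 95.7 CPM, and this tumor decides whether Epha2 is called. Ephb6 in shNT tumor 1 was at 7.72 CPM, with the others at 12.2 to 12.9 CPM. Fdps in shNT tumor 4 was at 256 CPM, with the others at 292 to 295 CPM. The other 3 rest on 6 counts or fewer: Epha7 at 0.208 CPM in shNT tumor 3 and at 0.107 CPM in shXBP1 tumor 4, and Epha10 at 0.156 CPM in shNT tumor 4, each with 0 in the other tumors of the group. No cause was tested.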

How the results depend on the processing

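The log2 fold change of Epha8 lay between -2.51 and -2.10 over all alternatives and was -2.29 from the deposited FPKM. The number of receptors other than Epha8 called lower was 0 to 1 when 1 tumor was left out (1 without shXBP1 tumor 4), and 0 under the other alternatives. The number of ephrins called lower was 1 to 3 with a tumor left out, and 0 at a threshold of 0.01. Of the signalling partners, 6 to 9 rose and 2 to 5 fell with a tumor left out. At the threshold of 0.01, 5 rose and 1 fell. Same-numbered tumors did not vary together (correlation of deviations -0.14 to -0.02, and none was closest to its own number). No pairing by number was seen, but so few tumors cannot exclude one. With the tumor number as a block 0 receptors, 1 ephrin, 5 higher partners and 3 lower partners were called, Epha8 was at -2.33, and Crk lost its call (adjusted p = 0.0653). Over all genes 1958 were lower, against 1304 with the block and 1303 without shNT tumor 3. Without shXBP1 tumor 4 the calls over all genes rose, to 2401 lower and 2904 higher, from 1958 and 2517. Signs that turned belonged to uncalled genes: Epha3 at 0.63 with limma voom, 0.11 with the block and -0.45 to 0.35 with a tumor left out, Efna3 at -0.43 to 0.15, Efnb3 at -0.011 to 0.24 and Zbtb40 at -0.0076 to 0.10. The cause was not tested. Epha1, Epha3, Epha4 and Epha7 had too few counts for a difference to be detectable at this depth unless it was large.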

Other observations

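Dividing the counts of a gene by its FPKM gives the length that the authors' scaling used, up to a factor per tumor, which was removed with the median over 9497 genes with at least 300 counts in each tumor. For Epha8, Epha2 and Ephb6 this length varied by at most 1.01-fold between tumors. For Ephb2 it was 8.40 kb in shXBP1 tumor 4 and 10.7 to 12.4 kb in the other 7 tumors, a ratio of highest to lowest of 1.47, where 95% of the 9497 genes stayed below 1.20. The FPKM of Ephb2 in that tumor was 2.997, against 1.07 to 1.70 in the other 7, while its CPM was 23.6 against 13.3 to 18.6. Ephb2 has 6 annotated transcripts of 0.599 to 10.9 kb. Isoforms were not measured, and the cause was not tested.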
